A study of Mus musculus with 22 samples.

Results

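Colon tumours of 5 formerly obese mice were compared with colon tumours of 5 mice that stayed obese, across every gene with a named probe set on the array. The groups were read from the sample titles and the diet labels, and they hold 10 of the 22 tumours of the series. All animals were males of the inbred FVB/N strain, and all tumours had been induced with azoxymethane, a carcinogen that acts on the colon. The formerly obese mice had been switched from a high-fat to a low-fat diet. The obese mice stayed on the high-fat diet, which took 60% of its energy from fat. Neither group received sulindac. Control mice, of which there were 6, were fed a low-fat diet, in which fat supplied 10% of the energy, also without sulindac, and are given here only to place values. The labels give no age, no body weight and no date of the diet switch, so the length of time on the new diet is unknown here. Each tumour came from its own mouse. The comparison asks how tumours differ between mice switched to the low-fat diet and obese mice kept on the high-fat diet. Diet at collection and body weight cannot be told apart here.

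The colon epithelium renews itself from stem cells at the base of its crypts, which WNT signals maintain and which carry the receptor LGR5. Their daughters mature into absorptive colonocytes, mucus-secreting goblet cells and hormone-secreting enteroendocrine cells. Tumours of this model carry an overactive WNT pathway, and fibroblasts, vessels and immune cells grow among the tumour cells. In a bulk piece of tumour, fewer cells of a type and less RNA per cell cannot be told apart.

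Each array gave log2 levels, on which 1 unit is a 2-fold difference, for 22203 probe sets, and 19505 distinct genes are named. Array medians of the 22 arrays lay between 6.67 and 6.83. Epithelial markers (7 of 7 measured, among them Epcam and the intestinal regulator Cdx2) had mean levels of 14.15 to 15.18 in formerly obese tumours and 13.29 to 14.83 in obese tumours. Markers of fat cells (4 measured of 5) all averaged under 6 and had mean levels of 4.64 to 5.16 in formerly obese tumours and 4.60 to 5.09 in obese tumours. Formerly obese Mouse_134 stood apart from the other 9 tumours. Its 6 absorptive colonocyte markers averaged 14.51, against 9.26 to 11.89 in the other 4 formerly obese tumours and 7.48 to 10.69 in the obese tumours. Its 5 smooth muscle markers averaged 12.80, against 9.18 to 10.80 in the other formerly obese tumours and 9.60 to 10.56 in the obese ones. Results are therefore also given without this tumour. Single values are listed in the order Mouse_134, Mouse_140, Mouse_146, Mouse_150 and Mouse_152 for formerly obese tumours and Mouse_96, Mouse_101, Mouse_107, Mouse_109 and Mouse_113 for obese tumours.

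No gene passed the test across all genes. With limma, 0 of 22203 probe sets (0.0%) had a Benjamini-Hochberg adjusted p under 0.05, and the smallest adjusted p was 0.866. Without Mouse_134 the smallest was 0.997. Before adjustment, 1263 probe sets (5.69%) had a p under 0.05, of which 616 lay higher in formerly obese tumours (2.77%) and 647 lower (2.91%), while a test of this kind calls 1110 by its own error rate. Every gene named here therefore stands as a measured difference that did not pass, and unadjusted values are given to order the genes. A gene's 95% interval reached 0.46 log2 units to either side of its difference at the median.

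In 83 named genes (0.426% of 19505) every formerly obese tumour lay above every obese tumour, and in 94 (0.482%) every formerly obese tumour lay below. Without Mouse_134, with 4 tumours against 5, the counts were 130 (0.666%) and 166 (0.851%). Among genes with a mean level of at least 6 over the 10 tumours there were 36 of the first kind and 72 of the second. The 10 largest differences of each kind are drawn in the plot of tumours relative to the obese mean. In 9 of the 10 higher and 9 of the 10 lower genes the control mean lay between those of the 2 groups. These genes were picked for a wide gap between the 2 groups, so a control mean inside that gap adds no support. Formerly obese minus control differences ran from 0.08 to 1.5 in the higher genes and from -1.29 to 0.09 in the lower genes.

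**Figure D1:**
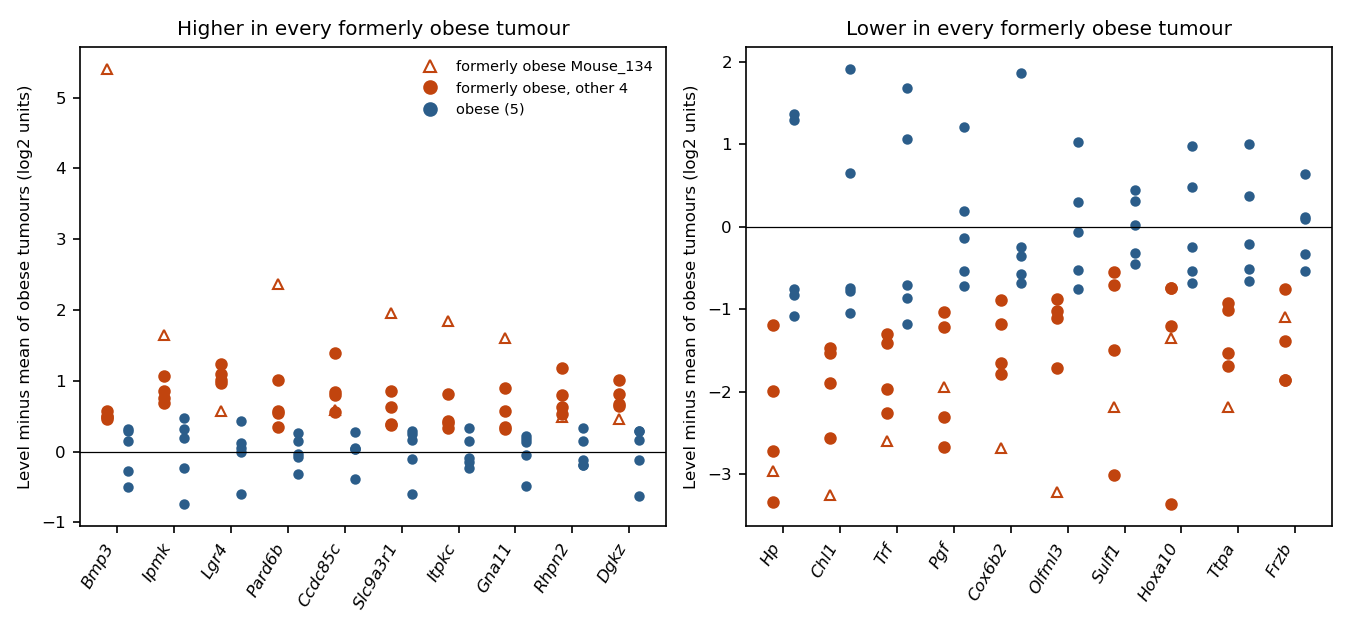
Level of each tumour minus the mean of the 5 obese tumours, in log2 units, for the 10 largest differences in each direction (left panel higher, right panel lower in formerly obese tumours). They were taken among genes with a mean level of at least 6 whose groups do not overlap. Orange marks are formerly obese tumours, with Mouse_134 as an open triangle, and blue points are obese tumours. Mouse_134 lies far above the other formerly obese tumours in Bmp3 and near or below them in Lgr4, Ccdc85c, Rhpn2 and Dgkz.

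Genes of WNT signalling and of the stem cell compartment included a receptor that lay higher and 2 secreted antagonists that lay lower in formerly obese tumours. Lgr4 encodes a receptor for R-spondins, which strengthen WNT signals, and is the broadly expressed relative of Lgr5. Its log2 levels were 14.77, 15.17, 15.30, 15.21 and 15.44 in formerly obese tumours, against 14.32, 14.20, 14.25, 14.64 and 13.60 in obese tumours. Every formerly obese tumour lay above every obese tumour, and Mouse_134 was the lowest of the formerly obese. The difference was 0.98 ± 0.28 log2 units (SE, 95% interval 0.39 to 1.57, limma adjusted p = 0.866, exact permutation p = 0.00794 before adjustment, the smallest that 5 against 5 allows). Without Mouse_134 it was 1.08. Groups of 5 that do not overlap always have an exact permutation p of 0.00794. For Lgr4, Frzb, Pgf and Hp, which were named because their groups do not overlap, that value adds no support. Control tumours ranged from 14.25 to 15.61 around a median of 14.94, spanning much of both groups.

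Frzb encodes a secreted WNT antagonist that binds WNT proteins outside the cell. Its levels were 7.70, 8.04, 6.93, 6.93 and 7.41 in formerly obese tumours, against 8.89, 8.26, 8.46, 8.91 and 9.43 in obese tumours. The groups did not overlap, with a gap between Mouse_140 at 8.04 and obese Mouse_101 at 8.26. The difference was -1.39 ± 0.47 (95% interval -2.36 to -0.42, limma adjusted p = 0.866, exact p = 0.00794), and -1.46 without Mouse_134. Wif1, a second secreted antagonist, which is itself a target of the pathway, stood at 14.26, 13.71, 15.30, 13.10 and 14.33 in formerly obese tumours, against 15.29, 16.04, 15.68, 15.30 and 17.42 in obese tumours. In 4 of 5 formerly obese tumours Wif1 lay below every obese tumour, and Mouse_146 reached the low end of the obese range. The Wif1 difference was -1.81 ± 0.75 (95% interval -3.37 to -0.24, limma adjusted p = 0.866), and -1.84 without Mouse_134.

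The promoters of these 3 WNT regulators are shown because the TCF/LEF factors at the end of the pathway recognise a short core motif, CTTTGA. The windows are RefSeq's for GRCm38.p6 and run from 250 bases before to 50 bases after the gene start, 5′ to 3′ on the gene's strand. Capitals mark the motif in either orientation (CTTTGA or TCAAAG). Lgr4 lies at chr2:109917397-109917696 on the plus strand, Frzb at chr2:80447347-80447646 on the minus strand and Wif1 at chr10:121033754-121034053 on the plus strand. The motif occurs 1 time in the Frzb window and 0 times in those of Lgr4 and Wif1, and 16.0% of 32851 RefSeq promoter windows of that length hold it.
Lgr4: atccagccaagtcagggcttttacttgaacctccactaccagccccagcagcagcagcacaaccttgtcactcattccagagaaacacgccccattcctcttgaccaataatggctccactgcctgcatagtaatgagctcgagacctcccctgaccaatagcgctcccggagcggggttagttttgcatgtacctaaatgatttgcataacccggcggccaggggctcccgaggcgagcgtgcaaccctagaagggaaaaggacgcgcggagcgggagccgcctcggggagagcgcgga
Frzb: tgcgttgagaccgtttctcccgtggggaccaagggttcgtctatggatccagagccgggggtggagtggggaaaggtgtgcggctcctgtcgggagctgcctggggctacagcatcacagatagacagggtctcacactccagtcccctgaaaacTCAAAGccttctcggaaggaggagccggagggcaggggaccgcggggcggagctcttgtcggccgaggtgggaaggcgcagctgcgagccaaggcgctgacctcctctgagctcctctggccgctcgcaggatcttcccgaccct
Wif1: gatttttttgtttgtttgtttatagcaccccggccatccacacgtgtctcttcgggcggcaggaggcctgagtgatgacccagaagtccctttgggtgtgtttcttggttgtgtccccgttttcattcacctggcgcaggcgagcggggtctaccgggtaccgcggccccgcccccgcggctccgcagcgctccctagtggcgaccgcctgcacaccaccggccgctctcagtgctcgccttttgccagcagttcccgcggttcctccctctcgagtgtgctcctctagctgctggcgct
A match describes these letters only, and its absence from a window says nothing about regulation from elsewhere.

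The stem cell marker Lgr5 had levels of 9.36, 12.09, 11.08, 7.96 and 8.46 in formerly obese tumours, against 12.01, 12.07, 11.95, 11.51 and 13.69 in obese tumours. Formerly obese tumours were split, with 3 of them below 10 and Mouse_140 inside the obese range, while the obese tumours other than Mouse_113 lay within 11.51 to 12.07. The difference of -2.46 ± 0.95 (95% interval -4.44 to -0.47, limma adjusted p = 0.866) was -2.35 without Mouse_134. Slc12a2, the basolateral sodium, potassium and chloride cotransporter found in crypt base cells, stood at 14.81, 13.88, 14.58, 14.73 and 14.78 in formerly obese tumours, against 15.77, 14.94, 15.56, 15.13 and 14.95 in obese tumours. Its groups did not overlap, and the difference was -0.71 ± 0.26 (limma adjusted p = 0.866), or -0.78 without Mouse_134.

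The other WNT targets did not all follow these genes. Of 29 measured WNT target and stem cell genes, 24 had a lower mean in formerly obese tumours, where 50.0% of all named genes did, and 3 lay lower at an unadjusted p under 0.05 (Slc12a2, Lgr5 and Wif1), where 2.92% of all named genes did. The median difference of the 29 was -0.28 log2 units, beside 0.0 for all named genes. Without Mouse_134 the median was -0.29 and 23 of the 29 had a lower mean (49.6% of all named genes). Axin2, a feedback target used as a readout of the pathway, differed by 0.07 ± 0.32, and its sign turned when any of 3 single tumours was left out (-0.04 to 0.30 over all such settings). Myc, a growth-driving target, differed by -0.16 ± 0.25. Mean levels of the 29 genes by tumour were 10.81, 11.38, 11.56, 10.73 and 10.13 in formerly obese tumours, against 11.57, 11.42, 11.22, 11.22 and 11.53 in obese tumours.

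**Figure D2:**
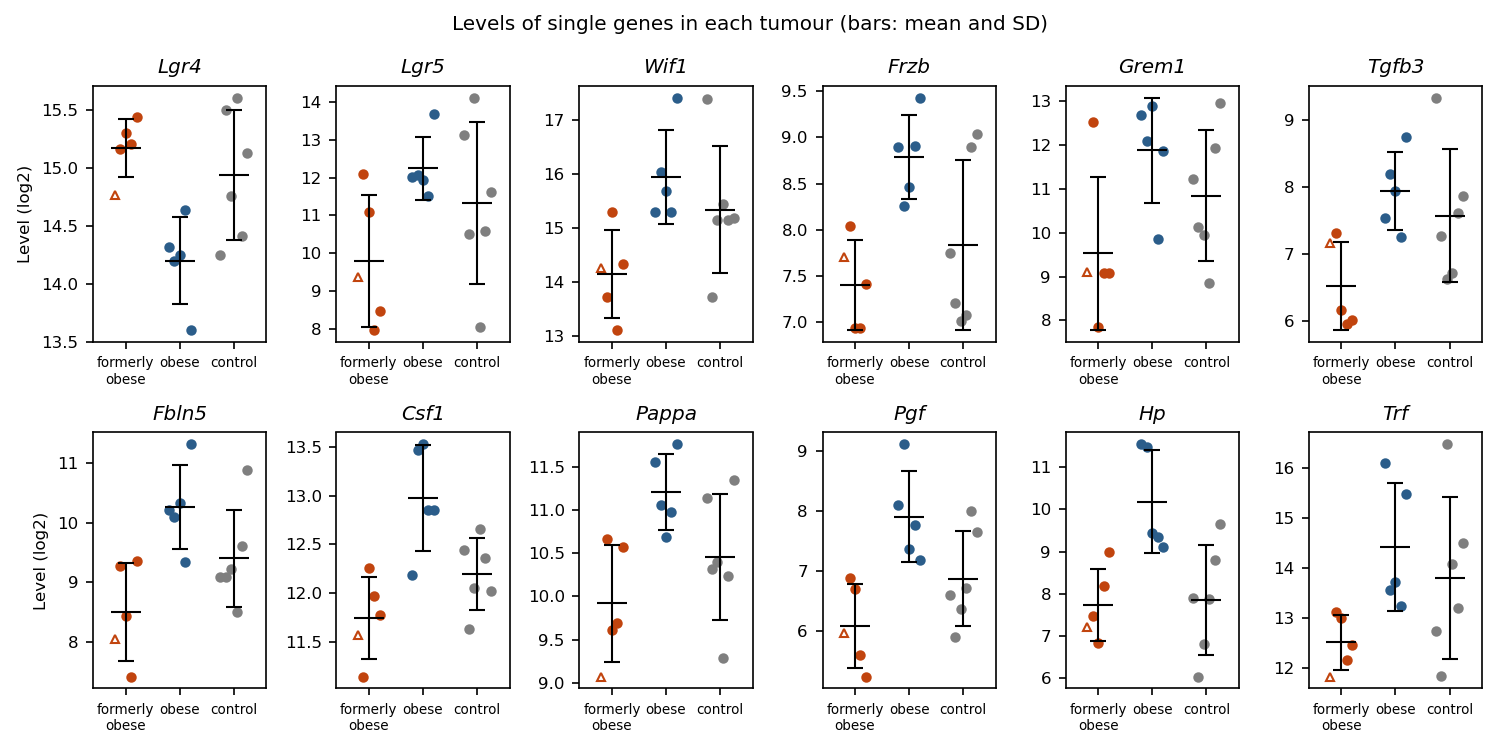
Log2 level of 12 genes in each tumour of the formerly obese (orange, Mouse_134 as an open triangle), obese (blue) and control mice (grey), with the mean and SD of each group in black. Lgr4, Frzb, Pappa, Pgf, Hp and Trf do not overlap between formerly obese and obese tumours, while Lgr5 and Grem1 overlap through Mouse_140.

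BMP and TGF-beta signals oppose stemness in the epithelium and drive matrix production in fibroblasts. Grem1, a secreted BMP antagonist made by stromal cells, was chosen after its values were seen because it had the lowest difference of this list. Its levels were 9.11, 12.51, 7.86, 9.09 and 9.07 in formerly obese tumours, against 12.67, 12.09, 12.89, 9.86 and 11.86 in obese tumours. All formerly obese tumours but Mouse_140 lay below every obese tumour. The difference was -2.35 ± 0.91 (95% interval -4.24 to -0.46, limma adjusted p = 0.866), -2.24 without Mouse_134 and -3.09 without Mouse_140. The ligand gene Tgfb3 stood at 7.16, 7.31, 6.16, 5.95 and 6.02 in formerly obese tumours, against 7.54, 8.20, 7.95, 7.26 and 8.75 in obese tumours. In 4 of 5 formerly obese tumours Tgfb3 lay below every obese tumour, and Mouse_140 slightly exceeded the lowest of them. The difference was -1.42 ± 0.45 (95% interval -2.35 to -0.49, limma adjusted p = 0.866), and -1.58 without Mouse_134.

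The type I receptor gene Acvrl1 and the co-receptor gene Eng, both of vessel lining cells, differed by -0.75 ± 0.26 and -0.85 ± 0.33, and by -0.89 and -0.65 without Mouse_134. Bmp3, which encodes a BMP family member that antagonises other BMPs, lay higher in every formerly obese tumour, at 12.00, 7.17, 7.10, 7.08 and 7.06 in formerly obese tumours, against 6.10, 6.32, 6.88, 6.75 and 6.92 in obese tumours. Only Mouse_134 had a high level, and the difference of 1.49 ± 0.64 was 0.51 without it. Of 36 measured genes of this pathway, 7 lay lower and 2 higher at an unadjusted p under 0.05, with 2.92% and 2.56% of all named genes doing so. Without Mouse_134 these counts were 5 and 0 (2.33% and 2.04% of all named genes), and the median difference was -0.04 with and -0.02 without it.

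Genes of elastic fibres, the stretchable part of the matrix, lay lower in formerly obese tumours as a group by count, although none passed the test over all genes. Of 21 measured genes 20 had a lower mean and 7 lay lower at an unadjusted p under 0.05 (50.0% and 2.92% of all named genes). Their median difference was -0.46. Without Mouse_134 it was -0.36, with 17 lower in mean and 4 at that level (49.6% and 2.33% of all named genes). The mean level of the 21 genes was 6.55, 7.32, 6.94, 6.65 and 7.03 in formerly obese tumours, against 7.37, 7.43, 7.62, 7.42 and 7.66 in obese tumours. In 4 of the 21 genes the mean was at least 1 log2 unit lower, with and without Mouse_134 (0.851% and 0.861% of all named genes). Every formerly obese tumour lay below every obese tumour in the list mean, with Mouse_140 closest at 7.32 against 7.37. Control tumours ranged from 6.61 to 7.66, across nearly the whole span of both groups.

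Fbln5, which encodes a protein that guides elastin assembly, had levels of 8.06, 9.27, 8.44, 7.42 and 9.36 in formerly obese tumours, against 10.22, 10.10, 10.33, 9.35 and 11.32 in obese tumours. The groups touched only where formerly obese Mouse_152 passed obese Mouse_109 by the last digit. The difference was -1.75 ± 0.45 (95% interval -2.68 to -0.83, limma adjusted p = 0.866), and -1.64 without Mouse_134. Eln, the elastin gene, stood at 4.94, 5.84, 5.41, 5.16 and 5.51 in formerly obese tumours, against 5.73, 6.55, 5.73, 7.30 and 6.44 in obese tumours, and only Mouse_140 entered the obese range. Its difference was -0.98 ± 0.32 (limma adjusted p = 0.866), and -0.87 without Mouse_134. Mfap4, a microfibril-associated gene, and Lox, which crosslinks elastin and collagen, differed by -1.50 ± 0.56 and -1.57 ± 0.64, and by -1.30 and -1.20 without Mouse_134.

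Fibroblast and collagen matrix genes gave similar counts. Of 30 measured genes 25 had a lower mean and 10 lay lower at an unadjusted p under 0.05 (50.0% and 2.92% of all named genes). Without Mouse_134 there were 4 at that level (2.33%), and the median difference was -0.43 with and -0.35 without it. Bgn, which encodes the matrix proteoglycan biglycan, stood at 10.99, 13.11, 12.31, 11.91 and 12.49 in formerly obese tumours, against 13.61, 12.69, 13.35, 13.07 and 13.64 in obese tumours. All formerly obese tumours except Mouse_140 lay below every obese tumour, and the difference of -1.11 ± 0.35 (limma adjusted p = 0.866) was -0.82 without Mouse_134. Col15a1, a basement membrane collagen gene, differed by -0.93 ± 0.29 and Ctsk, a collagen-degrading protease gene, by -0.68 ± 0.24, and in both the groups did not overlap. Their differences without Mouse_134 were -1.01 and -0.63. The collagen gene Col1a2, picked after its values were seen, differed by -0.90 ± 0.42 and by -0.61 without Mouse_134. The levels of the 4 measured fibroblast markers averaged 11.33 to 13.45 in formerly obese and 12.60 to 13.54 in obese tumours, and the part of fibroblast content in these differences was not tested.

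Sulf1 and Olfml3 are also products of stromal cells. Sulf1, an extracellular enzyme that trims heparan sulfate, had levels of 8.70, 10.18, 9.39, 7.87 and 10.34 in formerly obese tumours, against 11.33, 10.43, 10.90, 11.19 and 10.56 in obese tumours. Its groups did not overlap but came close between Mouse_152 and obese Mouse_101, and the difference of -1.59 ± 0.64 was -1.44 without Mouse_134. Olfml3, which encodes a secreted matrix protein, differed by -1.59 ± 0.46, and by -1.18 without Mouse_134, its lowest tumour at 6.96. Its levels in the other 4 formerly obese tumours lay between 8.47 and 9.30, against 9.43 to 11.21 in obese tumours.

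Matrix-degrading enzymes and their inhibitors lay on the same side. Of 24 measured metalloproteinase genes 23 had a lower mean in formerly obese tumours and 3 lay lower at an unadjusted p under 0.05 (50.0% and 2.92% of all named genes), with a median difference of -0.61. Without Mouse_134 these were 20 and 2 (49.6% and 2.33%), with a median of -0.39. Mmp9, a gelatinase gene of neutrophils and macrophages, had levels of 7.08, 10.90, 9.97, 9.17 and 7.92 in formerly obese tumours, against 11.53, 10.02, 10.57, 9.81 and 10.29 in obese tumours. Mouse_134 was lowest, Mouse_140 and Mouse_146 lay within the obese range, and the difference of -1.44 ± 0.58 (exact permutation p = 0.103) was -0.95 without Mouse_134. Mmp12, a macrophage elastase gene, differed by -1.19 ± 0.54, and Timp2, an inhibitor gene, by -0.79 ± 0.38.

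In the insulin and IGF list, IGF1 acts locally to promote growth, binding proteins such as IGFBP4 hold it, and the protease PAPPA frees it by cutting IGFBP4. Pappa had levels of 9.07, 10.66, 9.61, 9.69 and 10.57 in formerly obese tumours, against 11.55, 11.06, 10.69, 10.98 and 11.76 in obese tumours. The groups did not overlap, with Mouse_140 and obese Mouse_107 almost touching. The difference was -1.29 ± 0.48 (95% interval -2.29 to -0.28, limma adjusted p = 0.866), and -1.08 without Mouse_134. Igfbp4 differed by -1.37 ± 0.50 and by -0.83 without Mouse_134, in which it was lowest at 11.76, against 13.82 to 15.54 in the other formerly obese tumours and 14.62 to 16.24 in the obese tumours. Igf1 itself stood at 13.90, 16.30, 15.12, 14.67 and 15.30 in formerly obese tumours, against 15.79, 15.58, 15.90, 15.79 and 17.72 in obese tumours. Mouse_140 exceeded 4 of the 5 obese tumours, and the difference of -1.10 ± 0.47 (exact permutation p = 0.0873) was -0.81 without Mouse_134. Igfbp5, chosen after its values were seen, differed by -1.65 ± 0.74 and by -1.09 without Mouse_134. Of 25 measured genes 17 had a lower mean and 5 lay lower at an unadjusted p under 0.05 (50.0% and 2.92% of all named genes). Without Mouse_134 there was 1 at that level (2.33% of all named genes), and the median was -0.33 with and without it.

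Ghr, the growth hormone receptor gene, belongs to the adipokine and gut hormone receptor list. Its levels were 9.33, 9.88, 9.79, 9.03 and 9.86 in formerly obese tumours, against 10.40, 9.99, 10.86, 10.18 and 10.12 in obese tumours. The groups did not overlap, and the difference of -0.73 ± 0.30 (limma adjusted p = 0.866) was -0.67 without Mouse_134. Control tumours averaged 10.47, and formerly obese tumours lay -0.90 ± 0.28 from them. In that list 1 of 25 genes lay lower at an unadjusted p under 0.05 and 0 higher (2.92% and 2.56% of all named genes), and its median difference was -0.04, or -0.11 without Mouse_134. The adipokine genes Lep and Adipoq stayed at low levels in the tumours, with means of 4.52 and 4.42 in formerly obese tumours against 4.34 and 4.13 in obese tumours.

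Among vessel genes, Pgf encodes placental growth factor, a ligand of the receptor that Flt1 encodes. Pgf stood at 5.97, 6.88, 6.70, 5.61 and 5.24 in formerly obese tumours, against 8.10, 9.12, 7.37, 7.77 and 7.19 in obese tumours. The groups did not overlap, and the difference was -1.83 ± 0.51 (95% interval -2.88 to -0.78, limma adjusted p = 0.866, exact p = 0.00794), or -1.80 without Mouse_134. Flt1 differed by -0.87 ± 0.41, and by -0.76 without Mouse_134. Of 29 measured endothelial genes 26 had a lower mean in formerly obese tumours, and 2 lay lower at an unadjusted p under 0.05 (50.0% and 2.92% of all named genes), with a median of -0.41. Without Mouse_134 these were 24 and 0 (49.6% and 2.33%), with a median of -0.39.

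Hp and Trf encode the plasma proteins haptoglobin, which binds free haemoglobin, and transferrin, which carries iron. Hp had the largest difference among the drawn genes, those with a mean level of at least 6 and groups that did not overlap. Its levels were 7.22, 7.46, 6.84, 8.19 and 8.99 in formerly obese tumours, against 11.55, 11.47, 9.43, 9.35 and 9.10 in obese tumours. Obese Mouse_96 and Mouse_101 stood well above the other 3 obese tumours, and Mouse_152 came close to the lowest of these. The difference was -2.44 ± 0.75, 5.43-fold lower (95% interval -4.0 to -0.88, limma adjusted p = 0.866, exact p = 0.00794), and -2.31 without Mouse_134. Control tumours had Hp levels of 6.03 to 9.66 with a mean of 7.84, so that formerly obese tumours lay -0.10 ± 0.72 from control tumours.

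Trf levels were 11.82, 13.12, 13.00, 12.16 and 12.45 in formerly obese tumours, against 16.10, 13.55, 13.71, 13.23 and 15.48 in obese tumours. The obese tumours Mouse_96 and Mouse_113 stood high, and Mouse_140 came close to the lowest obese tumour. The difference was -1.90 ± 0.69 (95% interval -3.33 to -0.48, limma adjusted p = 0.866), and -1.73 without Mouse_134. The levels of the 4 liver markers averaged 6.13 to 7.55 in formerly obese tumours and 6.80 to 8.90 in obese tumours, highest in obese Mouse_96, and their part in Hp and Trf was not tested. Alas2, which makes haem in red cell precursors, differed by -1.46 ± 0.63 and by -1.41 without Mouse_134, and the globin genes were not analysed here.

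Chl1, Hoxa10, Cox6b2 and Ttpa completed the 10 lower genes. Chl1, a neural cell adhesion gene, had levels of 5.27, 6.99, 6.63, 7.05 and 5.96 in formerly obese tumours, against 9.18, 7.48, 7.78, 7.74 and 10.44 in obese tumours. Obese Mouse_96 and Mouse_113 were again the highest, and the difference of -2.14 ± 0.60 (limma adjusted p = 0.866) was -1.87 without Mouse_134. Hoxa10, a homeobox gene of the posterior body axis, stood at 12.08, 12.22, 12.69, 12.68 and 10.06 in formerly obese tumours, against 13.91, 14.40, 12.75, 13.18 and 12.89 in obese tumours. Mouse_152 was far below the rest and Mouse_146 and Mouse_150 almost reached obese Mouse_107. The Hoxa10 difference was -1.48 ± 0.38 (limma adjusted p = 0.866), -1.51 without Mouse_134 and -1.01 without Mouse_152. Cox6b2, a testis form of a respiratory chain subunit, and Ttpa, a vitamin E transfer protein gene, differed by -1.64 ± 0.47 and -1.46 ± 0.49, and by -1.38 and -1.28 without Mouse_134.

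Several of the higher genes act in phosphoinositide and lipid second messenger signalling, a grouping seen after the values and not tested. Ipmk, an inositol polyphosphate kinase gene, had levels of 11.35, 10.39, 10.56, 10.47 and 10.78 in formerly obese tumours, against 8.96, 10.02, 10.18, 9.90 and 9.47 in obese tumours. The groups did not overlap, with Mouse_134 highest, and the difference of 1.0 ± 0.28 (95% interval 0.42 to 1.59, limma adjusted p = 0.866) was 0.84 without it. Itpkc, which phosphorylates the calcium-releasing messenger inositol trisphosphate, differed by 0.77 ± 0.32, and by 0.50 without Mouse_134. Dgkz, which removes the messenger diacylglycerol, and Gna11, a G protein subunit that activates phospholipase C, differed by 0.72 ± 0.20 and 0.75 ± 0.24, and by 0.79 and 0.53 without Mouse_134.

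The other higher genes included regulators of the epithelial cell's apical side. Pard6b encodes a cell polarity protein and Slc9a3r1 a scaffold beneath the brush border. Pard6b stood at 11.41, 10.05, 9.39, 9.59 and 9.61 in formerly obese tumours, against 8.97, 9.31, 9.0, 9.19 and 8.73 in obese tumours. Mouse_134 stood above the rest, and the difference of 0.97 ± 0.29 was 0.62 without it. Slc9a3r1 differed by 0.84 ± 0.32 and by 0.57 without Mouse_134. Rhpn2, which binds the GTPase RhoA, and Ccdc85c, which encodes an apical junction protein, differed by 0.73 ± 0.25 and 0.84 ± 0.23, and by 0.79 and 0.90 without Mouse_134.

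**Figure D3:**
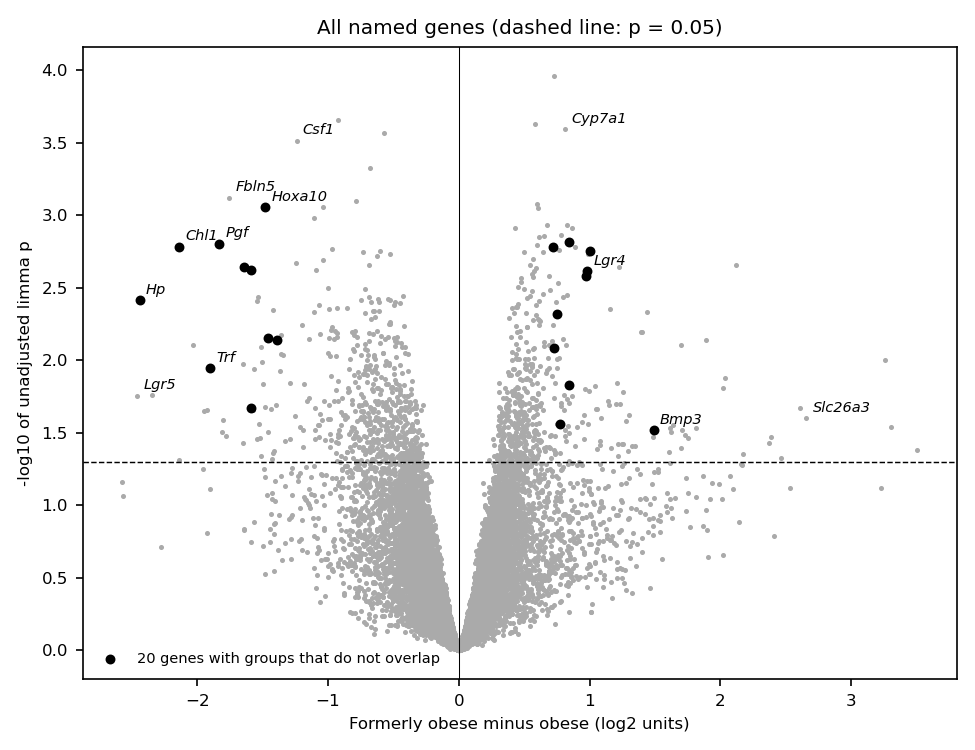
Difference between formerly obese and obese tumours in log2 units (x axis, positive is higher in formerly obese) against the negative log10 of the unadjusted limma p (y axis) for the 19505 named genes in grey, with the 20 genes of the 2 sets without overlap in black. Points above the dashed line have an unadjusted p under 0.05, and none of them passed adjustment.

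Genes of absorptive colonocytes had the highest median difference of the 42 lists in all tumours, but not without Mouse_134, when the interferon list had 0.67 and this one 0.47. Of 33 measured genes 32 had a higher mean in formerly obese tumours, where 49.8% of all named genes did. In 17 of the 33 the mean was at least 1 log2 unit higher, where 1.04% of all named genes were, and 5 lay higher at an unadjusted p under 0.05 (2.56%). Without Mouse_134 these counts were 27 (50.4% of all named genes), 7 (0.728%) and 2 (2.04%), and the median difference was 0.47 in place of 1.01. The mean level of the 33 genes was 12.90, 9.81, 9.74, 10.66 and 10.57 in formerly obese tumours, against 8.49, 10.55, 10.30, 9.91 and 9.05 in obese tumours. The 4 formerly obese tumours other than Mouse_134 lay inside the obese range or just above it, and obese Mouse_96 and Mouse_113 were the lowest of all.

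Slc26a3 encodes the chloride and bicarbonate exchanger of the mature colonocyte surface. It stood at 14.30, 8.29, 6.98, 11.13 and 9.09 in formerly obese tumours, against 6.86, 8.14, 8.93, 6.79 and 5.79 in obese tumours. Mouse_134 and Mouse_150 were clearly above the obese range, Mouse_152 just above it and the other 2 inside it. The difference of 2.66 ± 1.10 (95% interval 0.37 to 4.95, limma adjusted p = 0.866, exact permutation p = 0.0635) was 1.57 without Mouse_134. Mxd1, a MYC antagonist that accompanies differentiation, differed by 1.44 ± 0.46 and by 1.10 without Mouse_134. The carbonic anhydrase gene Car4 differed by 2.46 ± 1.17 (exact permutation p = 0.175) and by 1.20 without Mouse_134. The keratin gene Krt20, chosen after its values were seen, differed by 1.66 ± 0.93 and by 1.28 without Mouse_134.

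Bile acid genes shared with this list Slc51a and Slc51b, the subunits of the transporter that exports bile acids from the cell base. Slc51a, chosen after its values were seen, differed by 1.46 with all tumours and by 0.13 without Mouse_134. Slc51b stood at 7.74, 5.94, 5.17, 5.70 and 7.16 in formerly obese tumours, against 5.42, 4.48, 5.42, 5.19 and 5.44 in obese tumours. All formerly obese tumours but Mouse_146 lay above every obese tumour, and the difference of 1.15 ± 0.36 (95% interval 0.40 to 1.90, limma adjusted p = 0.866) was 0.80 without Mouse_134. Cyp7a1, whose product limits the making of bile acids by liver cells, had low levels here, with 6.24, 5.01, 5.13, 5.59 and 5.46 in formerly obese tumours against 4.53, 5.05, 4.41, 4.59 and 4.79 in obese tumours. Only Mouse_140 entered the obese range, and the difference of 0.81 ± 0.19 (limma adjusted p = 0.866) was 0.62 without Mouse_134. The bile acid receptor gene Nr1h4 differed by 1.48 ± 0.78, and by 0.69 without Mouse_134. Of 26 measured genes 21 had a higher mean and 4 lay higher at an unadjusted p under 0.05 (49.8% and 2.56% of all named genes), with a median of 0.42. Without Mouse_134 there were 3 at that level (2.04% of all named genes) and the median was 0.25.

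Secretory cell genes had similar directions with more spread. Goblet cell genes had a higher mean in 19 of 24 (49.8% of all named genes), and in 18 without Mouse_134 (50.4%). Their median difference was 0.54, or 0.29 without Mouse_134, with 0 genes at an unadjusted p under 0.05 in either setting. Enteroendocrine genes had a higher mean in 19 of 22, and in 18 without Mouse_134, with medians of 0.41 and 0.27. At that level 2 of the 22 lay higher and 0 lower (2.56% and 2.92% of all named genes). Without Mouse_134 these were 1 and 1 (2.04% and 2.33%). Chgb, a protein of hormone granules, stood at 11.27, 9.07, 6.21, 6.31 and 5.92 in formerly obese tumours, against 5.18, 5.84, 6.42, 6.04 and 5.22 in obese tumours. Mouse_134 and Mouse_140 were high and the other 3 were inside the obese range. The difference of 2.02 ± 0.77 (exact permutation p = 0.0714) was 1.14 without Mouse_134. The granule gene Chga, chosen after its values were seen, was likewise highest in those 2 tumours, at 9.85 and 9.28, and differed by 1.86 ± 0.95, or 1.29 without Mouse_134. Pcsk1, which cuts prohormones, was high in other tumours, at 5.44, 5.95, 8.13, 5.84 and 8.91 in formerly obese tumours, against 4.69, 4.85, 5.23, 5.83 and 5.04 in obese tumours. Its difference was 1.73 ± 0.76, and 2.08 without Mouse_134.

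**Figure D4:**
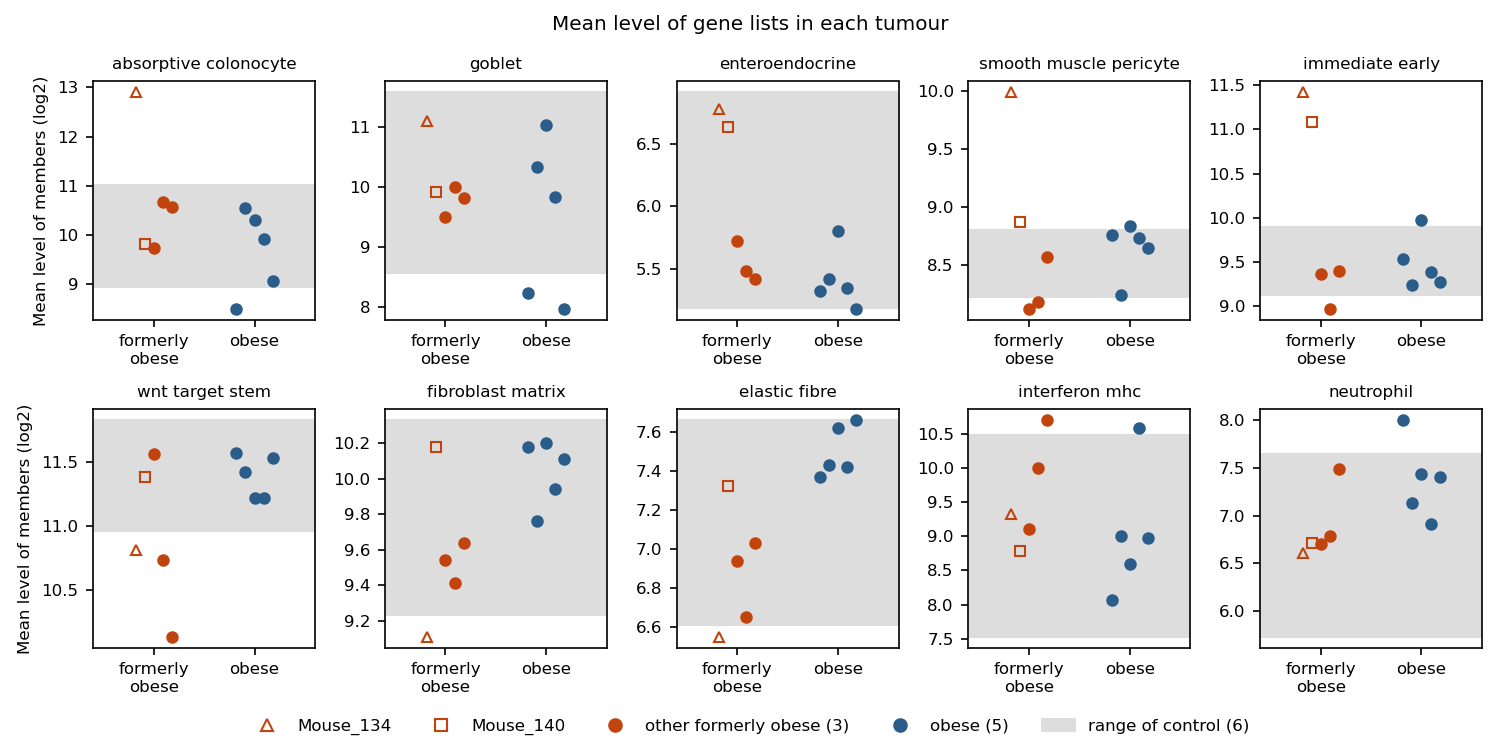
Mean log2 level of the measured members of 10 gene lists in each tumour, formerly obese at left (orange, Mouse_134 as an open triangle and Mouse_140 as an open square) and obese at right (blue), with the range of the 6 control tumours shaded. The elastic fibre mean separates the groups, the immediate early mean is high in Mouse_134 and Mouse_140 only, and Mouse_134 alone is high in absorptive and smooth muscle genes.

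Neuropeptide and neuron genes gave 2 of the larger differences that did not rest on Mouse_134. Tac1 encodes the precursor of substance P. It had levels of 10.88, 9.63, 9.81, 10.87 and 12.47 in formerly obese tumours, against 7.39, 8.12, 9.49, 9.32 and 9.91 in obese tumours. In 3 of 5 formerly obese tumours Tac1 lay above every obese tumour, the other 2 lay within the range of the obese ones, and the difference of 1.89 ± 0.63 (95% interval 0.57 to 3.21, limma adjusted p = 0.866) was 1.85 without Mouse_134. Stmn2, a microtubule regulator of neurons and some endocrine cells, differed by 1.70 ± 0.58, and by 1.68 without Mouse_134. The 4 measured glia and neuron markers had mean levels of 5.18 to 5.52 in formerly obese and 4.92 to 5.50 in obese tumours, and 3 of the 4 averaged under 6. Of 25 measured genes of the enteric neuron and glia list 3 lay higher at an unadjusted p under 0.05 (2.56% of all named genes), and 2 without Mouse_134 (2.04%). The median difference was 0.10 with and 0.11 without it.

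Immune genes were led by Csf1, the growth factor of macrophages. Csf1 stood at 11.57, 11.14, 12.26, 11.97 and 11.77 in formerly obese tumours, against 12.19, 13.47, 13.53, 12.85 and 12.85 in obese tumours. The only overlap was Mouse_146 with obese Mouse_96, and the difference of -1.24 ± 0.29 (95% interval -1.83 to -0.64, limma adjusted p = 0.866, exact p = 0.0159) was -1.19 without Mouse_134. Msr1, a scavenger receptor gene of macrophages, differed by -0.70 ± 0.26 and Pdcd1, the PD-1 gene of activated T cells, by -0.98 ± 0.43, and by -0.67 and -1.03 without Mouse_134. Macrophage genes had a lower mean in 24 of 30 and neutrophil genes in 21 of 28, where 50.0% of all named genes did. Their medians were -0.31 and -0.52. Each list had 1 gene higher and 2 lower at an unadjusted p under 0.05 (2.56% and 2.92% of all named genes). The higher ones, Cd163 and Elane, had low levels and differed by 0.37 ± 0.17 and 0.32 ± 0.14. Without Mouse_134 the medians were -0.17 and -0.39. Macrophage genes then had 0 higher and 2 lower at that level (2.04% and 2.33%), and neutrophil genes 0 and 0. T and NK cell genes and B and plasma cell genes had medians of -0.11 and -0.10, and mast cell genes of -0.06. Without Mouse_134 these were -0.03, 0.04 and 0.0, so that the sign of the B and plasma cell list turned.

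Cytokines had a lower mean in 24 of 29 (50.0% of all named genes), with 0 at an unadjusted p under 0.05. Their median was -0.26, or -0.37 without Mouse_134. Il11 and Il6 were each highest in Mouse_140 among formerly obese tumours, at 12.85 and 8.10, and differed by -1.50 ± 1.11 and -0.51 ± 0.60. Single tumours moved both, Il11 to -2.58 without Mouse_140, -0.82 without Mouse_152 and -0.97 without obese Mouse_96, and Il6 to -1.08 without Mouse_140, -0.28 without Mouse_150, -0.30 without Mouse_152 and -0.01 without obese Mouse_96. Il1b and Tnf differed by -0.78 ± 0.94 and -0.13 ± 0.54, well within the spread. Interferon and antigen presentation genes lay on the other side, with a higher mean in 29 of 34 (49.8% of all named genes). At an unadjusted p under 0.05 there were 0, and the median of 0.59 was 0.67 without Mouse_134. The mean level of the 34 genes overlapped widely, at 8.78 to 10.70 in formerly obese and 8.07 to 10.58 in obese tumours. Gbp2, an interferon-induced GTPase gene, stood at 12.13, 10.49, 10.76, 13.33 and 12.24 in formerly obese tumours, against 8.42, 10.65, 10.77, 12.54 and 8.95 in obese tumours, so the groups overlapped widely. It differed by 1.52 ± 0.76, and Iigp1, of the same kind and chosen after its values were seen, by 1.73 ± 0.89, and their differences without Mouse_134 were 1.44 and 1.66. The bactericidal lectin gene Reg3b had levels of 9.14 to 16.69 in formerly obese tumours and 8.83 to 12.54 in obese tumours and differed by 3.22 ± 1.73, or 2.80 without Mouse_134.

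Immediate early genes, which cells switch on within minutes of a stimulus or of tissue handling, were high in 2 tumours. Egr1, chosen after its values were seen, stood at 16.27, 15.79, 11.53, 10.59 and 10.79 in formerly obese tumours, against 11.58, 10.47, 12.87, 10.80 and 11.29 in obese tumours. Mouse_134 and Mouse_140 exceeded every other tumour and the remaining 3 lay inside the obese range. The mean of the 30 genes was 11.42, 11.09, 9.36, 8.97 and 9.40 in formerly obese tumours, against 9.54, 9.24, 9.98, 9.39 and 9.28 in obese tumours. Of the 30 genes 24 had a higher mean and 4 lay higher at an unadjusted p under 0.05 (49.8% and 2.56% of all named genes), with a median of 0.62. Without Mouse_134 these were 20, 0 and 0.28, where 50.4% and 2.04% of all named genes did so. With both tumours left out, a setting chosen after seeing the data, 6 of 30 had a higher mean, where 50.3% of all named genes did, and the median was -0.15.

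Leaving out Mouse_134 and Mouse_140 together also moved other lists. The matrix lists kept negative medians, at -0.43 for elastic fibres, -0.41 for fibroblast matrix and -0.68 for metalloproteinases, and WNT targets had -0.48 with 24 of 29 lower in mean (49.7% of all named genes). Endothelial genes had a median of -0.64, with 8 of 29 lower at an unadjusted p under 0.05, where 2.98% of all named genes were. The absorptive list had 0.81 and the interferon list 0.91, with 5 of 34 higher at that level (2.88% of all named genes), while the enteroendocrine list had 0.04. Smooth muscle genes had a median of 0.13 in all tumours, -0.24 without Mouse_134 and -0.35 without both.

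Metabolic lists had small median differences, with larger ones in single members. Fat oxidation and PPAR target genes had a median difference of 0.03, cholesterol genes of 0.08, lipid synthesis genes of 0.19, respiratory chain genes of 0.10, glycolysis genes of -0.14 and genes of ketone and sugar handling of -0.01. Without Mouse_134 these were -0.07, 0.09, 0.10, 0.05, -0.14 and -0.02 in the same order, so that the sign of the fat oxidation list turned. In the lipid synthesis list, Apob, which encodes the protein of lipoprotein particles, differed by 1.61 ± 0.69, and by 1.0 without Mouse_134, in which it was highest at 11.37. Thrsp, a lipid synthesis regulator gene, had low levels, with means of 4.28 in formerly obese and 4.86 in obese tumours. It differed by -0.58 ± 0.20 with and by -0.58 without Mouse_134. Angptl4, a PPAR target that inhibits lipoprotein lipase, stood at 6.67, 7.78, 7.20, 7.12 and 7.74 in formerly obese tumours, against 8.11, 7.62, 8.08, 7.72 and 8.0 in obese tumours. In 3 of 5 formerly obese tumours Angptl4 lay below every obese tumour, and the difference of -0.60 ± 0.26 (95% interval -1.14 to -0.06, limma adjusted p = 0.866) was -0.45 without Mouse_134. Hsd17b4, a peroxisomal enzyme of fat oxidation, stood at 12.00, 11.28, 11.93, 11.63 and 11.84 in formerly obese tumours, against 12.03, 12.34, 12.34, 12.32 and 12.14 in obese tumours. Those groups did not overlap, though Mouse_134 and obese Mouse_96 nearly touched, and the difference of -0.50 ± 0.16 was -0.56 without Mouse_134. Fads2, a desaturase gene, differed by -0.94 ± 0.36, and by -0.90 without Mouse_134. Cpt1a and Pdk4, both classical PPAR targets, differed by 0.16 ± 0.24 and -0.88 ± 1.02.

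Prostaglandin genes differed in both directions, from -1.15 to 2.37 log2 units. Ptges2, a prostaglandin E synthase gene, differed by -0.48 ± 0.18, and by -0.61 without Mouse_134, and Ptger1, a receptor gene for prostaglandin E2, by 0.47 ± 0.18 and 0.41. Ptgs2, the inducible cyclooxygenase gene, had levels of 11.09, 12.74, 8.66, 9.07 and 8.54 in formerly obese tumours, against 11.41, 9.72, 10.95, 9.63 and 9.71 in obese tumours. Mouse_134 and Mouse_140 were high, the other 3 lay below every obese tumour, and the difference was -0.26 ± 0.80. Hpgd, which inactivates prostaglandin E2, differed by 2.37 ± 1.07 and by 1.76 without Mouse_134. Pla2g5, a secreted phospholipase gene, differed by -1.15 ± 0.45 and by -1.27 without Mouse_134, with 2 of 5 formerly obese tumours below every obese tumour. The list of 29 genes had a median of -0.20, with 2 higher and 3 lower at an unadjusted p under 0.05 (2.56% and 2.92% of all named genes). Without Mouse_134 the median was -0.16, with 2 higher and 2 lower (2.04% and 2.33%).

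Cell cycle genes had a higher mean in 23 of 37 (49.8% of all named genes) with a median difference of 0.03. Of the 37, 0 had an unadjusted p under 0.05. Without Mouse_134 the mean was higher in 28 of 37 (50.4% of all named genes) with a median of 0.13, and without Mouse_134 and Mouse_140 in 33 of 37 (50.3%) with a median of 0.27, again with 0 at that level. The proliferation marker Mki67 differed by 0.17 ± 0.26, and its sign turned without Mouse_150 (-0.02). Stress and growth lists had median differences that were small in either setting. They were 0.06 for the unfolded protein response, 0.12 for p53 and apoptosis, -0.09 for NRF2 targets and -0.07 for ribosome biogenesis and polyamines, and 0.03, 0.07, -0.10 and -0.02 in the same order without Mouse_134. Xbp1, a transcription factor gene of the unfolded protein response, differed by -0.36 ± 0.19, and by -0.45 without Mouse_134.

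Rhox5, a homeobox gene of reproductive tissue, was lower in every formerly obese tumour, at 6.23, 6.06, 5.73, 6.19 and 6.26 in formerly obese tumours, against 6.59, 7.23, 6.91, 7.12 and 7.80 in obese tumours. Its difference was -1.04 ± 0.27 (95% interval -1.59 to -0.48, limma adjusted p = 0.866), and -1.07 without Mouse_134. Control tumours averaged 6.04, and formerly obese tumours lay 0.06 ± 0.26 from them. Slc41a2, a magnesium transporter gene, stood at 8.29, 7.92, 7.36, 7.50 and 7.80 in formerly obese tumours, against 8.59, 8.87, 8.36, 8.66 and 7.93 in obese tumours. In 4 of 5 formerly obese tumours Slc41a2 lay below every obese tumour, and the difference was -0.71 ± 0.25, or -0.84 without Mouse_134, with a control mean of 7.15.

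The remaining lists had medians near that of all named genes, with single members farther away. Median differences were -0.05 for tuft cells, -0.03 for antimicrobial genes, 0.03 for squamous epithelium, 0.03 for EGF ligands and receptors, 0.02 for fetal and repair genes, 0.07 for fat cells and -0.08 for red cells. Without Mouse_134 they were -0.06, 0.05, 0.07, 0.05, 0.01, -0.14 and -0.04 in the same order, so that the signs of the antimicrobial and fat cell lists turned. At least 1 log2 unit higher were 4 of 19 squamous, 3 of 25 EGF and 3 of 23 antimicrobial genes (1.04% of all named genes), and another 3 antimicrobial genes were at least 1 log2 unit lower (0.851%). Without Mouse_134 the higher counts were 2, 0 and 3 (0.728%) and the lower count 2 (0.861%). The foregut list also had a median of 0.03. Of its 16 measured genes 1 lay higher and 2 lower at an unadjusted p under 0.05 (2.56% and 2.92% of all named genes). Without Mouse_134 these were 1 and 1 (2.04% and 2.33%). The lower ones, Foxq1 and Aqp5, differed by -0.66 ± 0.25 and -0.65 ± 0.31, and by -0.66 and -0.65 without Mouse_134. The higher one, Anxa10, a stomach annexin gene, stood at 3.94, 4.21, 8.01, 6.58 and 7.43 in formerly obese tumours, against 4.58, 4.17, 4.16, 4.83 and 4.41 in obese tumours. Mouse_146, Mouse_150 and Mouse_152 were above every obese tumour and Mouse_134 was the lowest of all 10. The difference of 1.6 ± 0.75 (exact permutation p = 0.151) was 2.13 without Mouse_134. Hbegf, an EGF family ligand gene, was high in Mouse_134 and Mouse_140 and differed by 1.32 ± 0.60, or 0.85 without Mouse_134.

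**Figure D5:**
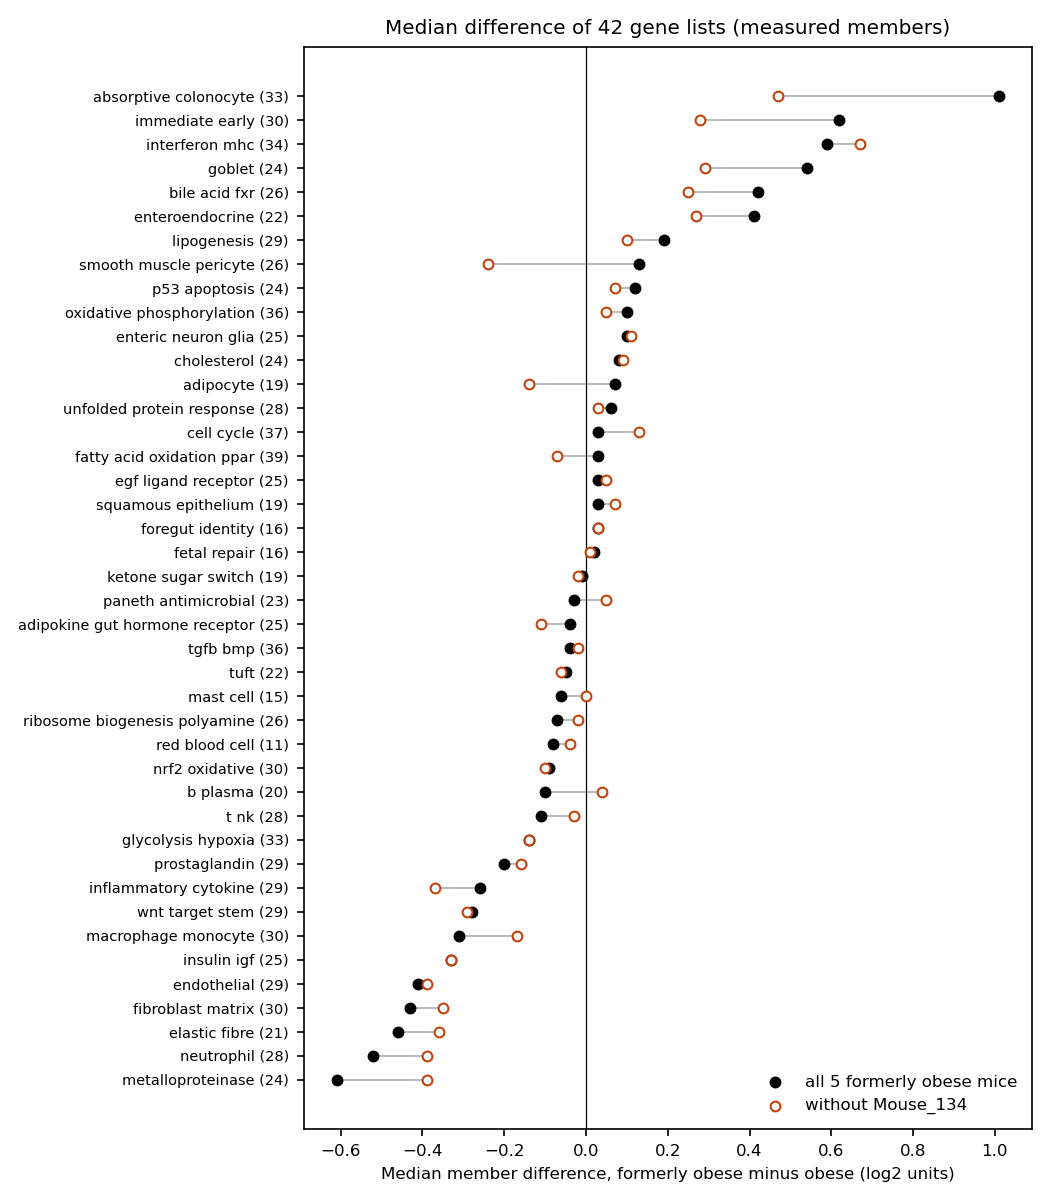
Median difference between formerly obese and obese tumours over the measured members of each of the 42 gene lists, in log2 units, with all 5 formerly obese tumours (black) and without Mouse_134 (open orange). Numbers in parentheses are measured members. The absorptive list lies at 1.01 with Mouse_134 and 0.47 without it, and the matrix lists stay below 0 either way.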

How the data were processed

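Total RNA of single tumours was labelled and hybridised to Clariom S arrays, whose probe sets each represent a gene, per the labels' protocols. The deposited values are log2 levels of 22203 probe sets, made by the authors with Transcriptome Analysis Console 4.0, per the submitters' processing notes. How probes were summarized, corrected for background and normalized, and the base of the logarithm, is not given in the sources used here. The range of the deposited log2 levels, 3.34 to 19.49, was read as base 2, on which differences in log2 units rest. Levels are relative to the rest of an array, so a difference in total RNA cannot be seen, and levels of different genes were not compared. No level above or below background is known for a probe set.

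Of the probe sets, 19572 carried 1 gene symbol in the array's annotation, 2631 are unnamed here and 19505 genes are distinct. The 55 genes with several probe sets were represented by the one with the highest mean. In all, 254 probe sets repeated the values of some other probe set throughout the arrays. None of them represents any of the 123 genes for which exact tests were run. Matching to RefSeq of GRCm38.p6 used Entrez identifiers and all 19572 matched. RefSeq promoter windows were found for the 3 genes shown.

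A mean for each of 4 groups was fitted to all 22 arrays (limma 3.58.1 in R 4.3.3, lmFit and eBayes, no filter on dim probe sets), with Benjamini-Hochberg adjustment over 22203 probe sets and a threshold of 0.05, two-sided. Differences are given ± their standard error, and exact permutation tests over the 10 tumours were two-sided and unadjusted. The exact tests were run for all 123 named genes and are printed for some of them only. The fit was tested on simulated data. The labels give no batch or date, so none could be examined, and no mouse numbers are shared between groups. The limma p-values and standard errors rest on the spread between mice pooled over all 4 groups and moderated across genes. They can understate the spread where single formerly obese tumours stand far from the rest. Formerly obese SDs were 2.19 in Bmp3, 2.34 in Chgb and 2.80 in Egr1, against 0.36, 0.54 and 0.93 in obese tumours.

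The compared groups, the 42 gene lists and the named genes were chosen with earlier results of these data known, so no list is independent evidence. Lists are described by counts and medians, with no test of a list, and counts above 0 at an unadjusted p under 0.05 are set beside the share of all named genes. Named genes are the 10 largest differences in each direction among genes with a mean of at least 6 and groups that do not overlap, the 3 members of each list with the smallest unadjusted p under 0.05 (or 1 where there is none), and a fixed set. Predicted genes, clones and olfactory or vomeronasal receptors are not named. Other genes are said to be chosen after their values were seen. Alternatives left out each tumour in turn, Mouse_134 and Mouse_140 together, dim probe sets and repeated probe sets, fitted the 10 arrays alone, and used array weights, a mean-variance trend, quantile normalization or centring on array medians.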

Additional observations from a re-analysis of the deposited data

Results flagged for a closer look

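Among the named genes, 246 groups of 5 tumours were examined for a tumour that stood far from the other 4, and 18 had one. Chance marks about 1 in 20 groups of unselected genes. These genes were chosen partly on the same values, so that rate is no yardstick for them. Formerly obese Mouse_134 was far above its group in Bmp3 at 12.00 (next 7.17), Dnajb1 at 12.15 (next 10.72), Nefl at 5.67 (next 4.52) and Adipoq at 5.27 (next 4.36). Formerly obese Mouse_140 was far above in Grem1 at 12.51 (next 9.11) and Il6 at 8.10 (next 5.69), and far below in Slc12a2 at 13.88 (next 14.58). Formerly obese Mouse_152 was far above in Retnlg at 8.30 (next 5.66) and Cd28 at 6.67 (next 5.50), and far below in Hoxa10 at 10.06 (next 12.08). Obese Mouse_113 was far above in Lgr5 at 13.69 (next 12.07) and Igf1 at 17.72 (next 15.90), and far below in Apob at 6.14 (next 7.42) and Ptger1 at 6.02 (next 6.42). Obese Mouse_96 was far above in Cox6b2 at 10.08 (next 7.97) and Osm at 7.32 (next 6.04). Obese Mouse_107 was far above in Epb42 at 5.10 (next 4.80), and obese Mouse_101 far below in Slc51b at 4.48 (next 5.19). Levels are log2, and Grem1 was chosen after its values were seen.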

How the results depend on the processing

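In every alternative run 0 probe sets had an adjusted p under 0.05, with smallest values from 0.373 (without formerly obese Mouse_140) to 0.999 (without obese Mouse_113). Leaving out 1 tumour at a time gave 467 to 802 probe sets higher and 477 to 854 lower at an unadjusted p under 0.05, against 616 and 647 in all tumours. Named genes whose groups do not overlap made up 0.666% to 1.13% (higher) and 0.779% to 1.39% (lower) of those tested with 1 tumour fewer, against 0.426% and 0.482% in all tumours, since fewer tumours have to be separate. Without Mouse_134 and Mouse_140 (chosen after seeing the data) the shares were 2.08% and 2.48%. Without dim probe sets, those under a mean of 6.77, 203 lay higher and 398 lower among 11102 probe sets, and the shares without overlap were 0.326% higher and 0.633% lower. Centring each array on its median gave 877 higher and 435 lower, so that 66.8% of the called probe sets lay higher in place of 48.8%, with a median shift of 0.05 log2 units over named genes, and a share of 0.287% lower without overlap. Of the 123 named genes, no setting turned the sign of more than 3. It turned for Axin2 (-0.04 to 0.30), Mki67 (-0.02 to 0.29), Ptgs2 (-0.94 to 0.11) and Tnf (-0.38 to 0.24) over the settings that left out 1 tumour. Without Mouse_134 and Mouse_140 the differences of Egr1, Fosb and Tnf were -0.43, -0.02 and 0.12. No paired analysis was possible because the groups share no mouse numbers. The number of arrays limits the precision.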
